A study of Homo sapiens with 16 samples.

Results

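The comparison was of p53 KO with WT LNCaP cells under vehicle, made on 8 of the 16 libraries of the series. LNCaP is an established human prostate cancer line that was derived from a lymph node metastasis, depends on androgen and carries functional p53. WT vehicle cells, labelled as wild type, received DMSO, the solvent. The p53 KO vehicle cells came from a line made with CRISPR and received the same solvent. Each group had 4 libraries, taken 48 h after the addition. The other 8 libraries, WT GCN2iB and p53 KO GCN2iB, received the GCN2 kinase inhibitor GCN2iB at 5 µM for the same time, and they serve here as a second, separate reading of the genotype difference. The labels do not say whether the KO line was 1 clone or a pool, and a difference caused by p53 loss and one that arose while the line was made cannot be told apart. The libraries are not stated to come from separate cultures, so a p-value here weighs a difference against the spread of these libraries only, which may be technical.

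p53 is a transcription factor that binds a pair of decameric half-sites and activates genes for cell cycle arrest, DNA repair, apoptosis, metabolism and its own inhibition. MDM2, one of its targets, is the ubiquitin ligase that degrades it, and CDKN1A encodes p21, the inhibitor of cyclin-dependent kinases through which p53 lowers the expression of many cell cycle genes. In unstressed cells p53 is kept low by MDM2, and its targets are read at a basal level.

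The vehicle libraries held 19670655 to 36626031 counts in WT and 32127167 to 39915685 in p53 KO. Along the first principal component of the 500 most variable genes, the 4 WT vehicle libraries lay between -14.4 and -13.39 and the 4 p53 KO vehicle libraries between 13.63 and 13.98, and none stood apart from its group. Among the GCN2iB libraries, WT GCN2iB replicate 4 lay at -9.611, away from the -15.49 to -14.61 of the other 3. The number of genes with at least 1 count was 25113 to 26949 in WT vehicle and 27508 to 29064 in p53 KO vehicle, ranges that did not overlap. The part of this in the low-level rises described next was not tested. Luminal prostate markers were abundant in both genotypes, with a summed level of 9 markers of 6562 to 6842 CPM (counts relative to the TMM-scaled library total) in WT and 5875 to 5982 in p53 KO. The blood marker PTPRC had no count in any vehicle library, and the 5 blood markers summed to at most 0.332 CPM.

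Of 18549 genes tested, 4025 (21.7%) passed an adjusted p of 0.05, 1787 (9.63%) being higher and 2238 (12.1%) lower in p53 KO. Most of these differences were small: 2529 of the 4025 genes, or 62.8%, differed by less than 1.5-fold. At least 2-fold, 408 genes (2.20%) were higher and 344 (1.85%) were lower, and at least 4-fold 80 were higher and 87 lower. Many of the 752 genes at 2-fold or more were scarce, with 338 under 1 CPM in both genotypes and 168 at 5 CPM or more in one of them. Of these 168 abundant genes, 63 were higher and 105 lower. With library totals as the only scaling, 2467 genes were higher and 1593 lower, so the split between directions depended on the scaling, while the sets at 2-fold or more held 476 higher and 314 lower genes. The median log2 ratio of all tested genes was 0.006 (0.064 with library totals).

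CDKN1A (chr6:36676460-36687339, GRCh38) was read first, as the best known p53 target. It stood at 247, 276, 277 and 298 CPM in the 4 WT libraries and at 35.4, 36.1, 35.4 and 43.1 CPM in the 4 p53 KO libraries. The lowest WT library thus held several times the level of the highest p53 KO library. Its mean fell from 275 ± 21.1 to 37.5 ± 3.73 CPM (SD, n = 4), a log2 ratio of -2.87 ± 0.10 (SE) or 7.33-fold (edgeR, adjusted p = 1.23e-14). MDM2 (chr12:68808176-68850686) read 118, 99.4, 104 and 97.7 CPM in WT and 59.8, 50.2, 50.7 and 48.4 CPM in p53 KO. Its groups did not overlap either, and it fell by 1.00 ± 0.09 (SE) on the log2 scale (adjusted p = 1.14e-08). EIF2AK4, which encodes the kinase GCN2, and ATF4, the transcription factor downstream of it, did not pass the test, at log2 ratios of -0.09 ± 0.08 and 0.02 ± 0.06 (adjusted p = 0.434 and 0.853).

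**Figure D1:**
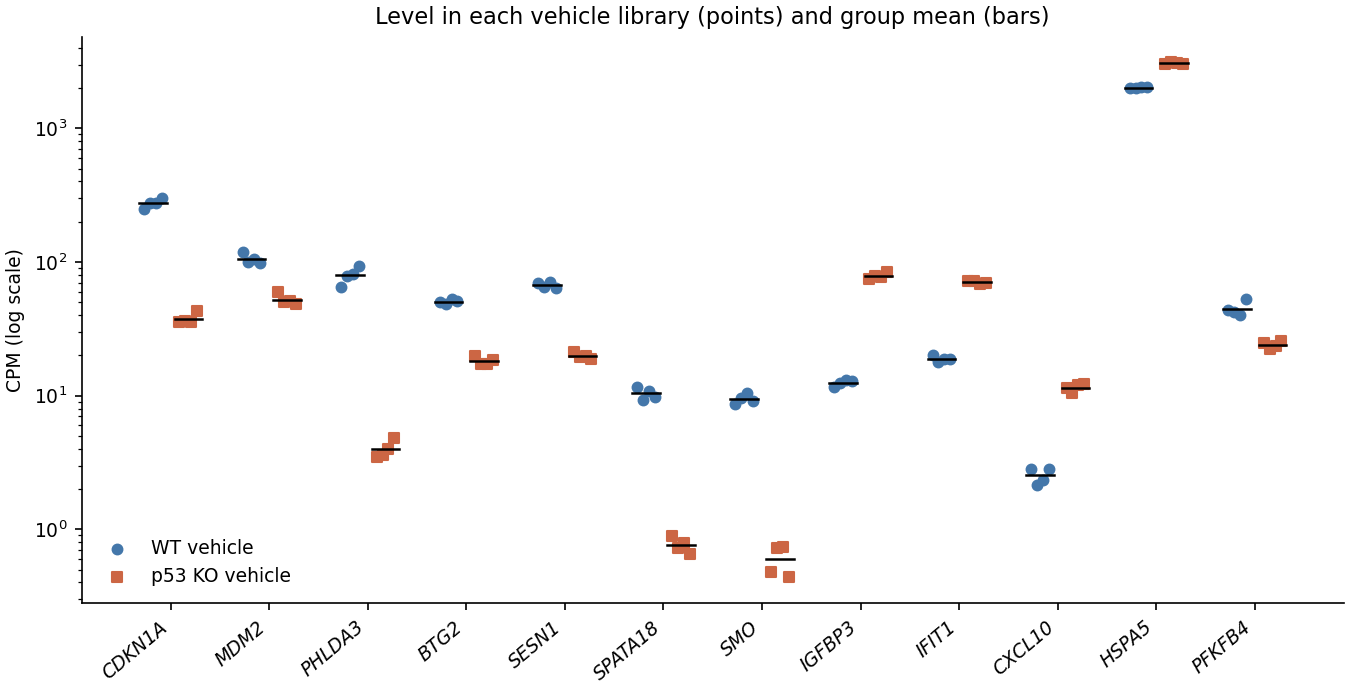
Level of 12 genes in the 8 vehicle libraries, in CPM on a log axis; each point is a library (circles WT, squares p53 KO, 4 of each) and each bar is a group mean. The 2 genotypes do not overlap for any of the 12 genes, with CDKN1A at 247 to 298 CPM in WT against 35.4 to 43.1 CPM in p53 KO.

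Across 118 listed p53 targets, 112 were tested; 58 were lower and 7 higher in p53 KO, and their median log2 ratio was -0.29, against 0.01 for all tested genes. Only a minority fell far: 17 were at least 2-fold lower. Under GCN2iB 52 of the 58 were again lower. The 6 roles into which the targets were divided differed in how many members moved.

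In the role of cell cycle arrest, 7 of 10 tested targets were lower and 1 higher. BTG2, an antiproliferative cofactor, read 50.2, 48.4, 52.6 and 50.8 CPM in WT and 19.7, 17.1, 17.3 and 18.6 CPM in p53 KO, a log2 ratio of -1.47 ± 0.07 (adjusted p = 3.43e-13). Cyclin G1, CCNG1, fell from 218 ± 12.7 to 131 ± 9.18 CPM (log2 ratio -0.73), GADD45A, a growth arrest gene, by 0.41 and the kinase gene PLK3 by 0.65 on the log2 scale. SFN, the 14-3-3 sigma protein that holds cells before mitosis, was scarce in this line and gave 2.23 ± 0.358 and 2.62 ± 0.467 CPM, with a log2 ratio of 0.21 ± 0.17 (adjusted p = 0.428). The arrest targets other than CDKN1A and BTG2 therefore moved by less than 2-fold.

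Among 13 tested genes listed under feedback and p53 regulation, 5 were lower and 2 higher. PHLDA3, an inhibitor of AKT, had the steepest drop of the role: 65.2, 78, 81.2 and 92.8 CPM in WT and 3.49, 3.59, 3.96 and 4.78 CPM in p53 KO. That is a 20.1-fold fall (log2 ratio -4.33 ± 0.18, adjusted p = 1.25e-11), wider than that of CDKN1A. The phosphatase gene PPM1D, which switches off p53 signalling, fell by only 0.28 ± 0.07. CDKN2A, counted in this role, has an ARF product that blocks MDM2 and so acts upstream of p53. Its level rose from 18.7 ± 1.75 to 28.6 ± 3.70 CPM (edgeR, log2 ratio 0.61, adjusted p = 0.00081).

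Among 19 tested targets in apoptosis and death receptor signalling, 10 were lower and none higher. BBC3, the BH3-only protein PUMA, read 9.16, 11.2, 11 and 12.8 CPM in WT against 3.94, 4.28, 4.06 and 4.83 CPM in p53 KO (log2 ratio -1.37 ± 0.11, adjusted p = 2.92e-09). BAX, the pore-forming protein that BH3-only proteins release, fell from 55.0 ± 4.34 to 30.1 ± 5.18 CPM. The death receptor FAS fell from 5.94 ± 0.885 to 2.55 ± 0.283 CPM (log2 ratio -1.21). The TRAIL receptor genes TNFRSF10A and TNFRSF10D fell less, by 0.65 and 0.57, and AEN, an apoptotic nuclease, by 0.67. Not every death gene followed: PMAIP1, which encodes NOXA, had a log2 ratio of 0.22 ± 0.08 (adjusted p = 0.0546, past the threshold in 8 of 17 alternatives) and PERP one of 0.03 ± 0.05.

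In DNA repair and nucleotide supply, 8 of 11 tested targets were lower and none higher. DDB2, the damage sensor of nucleotide excision repair, read 37.4, 39.9, 38.4 and 43.3 CPM in WT and 13.2, 14.7, 12.6 and 13.7 CPM in p53 KO, a 2.94-fold fall (adjusted p = 1.13e-13). XPC, its partner in lesion recognition, fell by 0.32 ± 0.06, the translesion polymerase gene POLH by 0.60 ± 0.09 and RRM2B, the p53-inducible subunit of ribonucleotide reductase, by 0.37 ± 0.08. DDB2 was the only one of the 8 to fall by 2-fold.

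In metabolism and redox control, 9 of 21 tested targets were lower and 1 higher. SESN1, a sestrin that restrains mTORC1, read 69.9, 65.2, 71 and 63.4 CPM in WT and 21.2, 19.3, 19.8 and 18.8 CPM in p53 KO (log2 ratio -1.77 ± 0.08, adjusted p = 1.13e-13). SPATA18, a regulator of mitochondrial quality, read 11.6, 9.34, 10.8 and 9.79 CPM in WT and fell 13.4-fold to 0.884, 0.724, 0.792 and 0.655 CPM. FDXR, the mitochondrial ferredoxin reductase, fell by 1.22 ± 0.09 and TIGAR, which lowers glycolytic flux, by 0.68 ± 0.13. HMOX1, heme oxygenase, was the 1 member that rose, by 0.61 ± 0.13. SESN2, the other stress sestrin, read 45.8 to 52.2 CPM in WT and 40.4 to 47.2 CPM in p53 KO and did not pass the test (log2 ratio -0.17 ± 0.07, adjusted p = 0.07, past the threshold in 3 of 17 alternatives).

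The last role, of secreted, surface and other products, had 19 of 38 tested targets lower and 3 higher. LIF, a cytokine, read 3.95, 5.33, 6.01 and 4.89 CPM in WT against 0.526, 0.483, 0.511 and 0.655 CPM in p53 KO (log2 ratio -3.22 ± 0.23, adjusted p = 5.62e-10). GDF15, a secreted stress factor, fell from 849 ± 163 to 339 ± 33.6 CPM and RPS27L, a ribosomal protein paralogue, from 112 ± 8.42 to 49.8 ± 2.05 CPM. CEL fell by 3.36 on the log2 scale, but a near-identical pseudogene copy makes its reads uncertain.

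**Figure D2:**
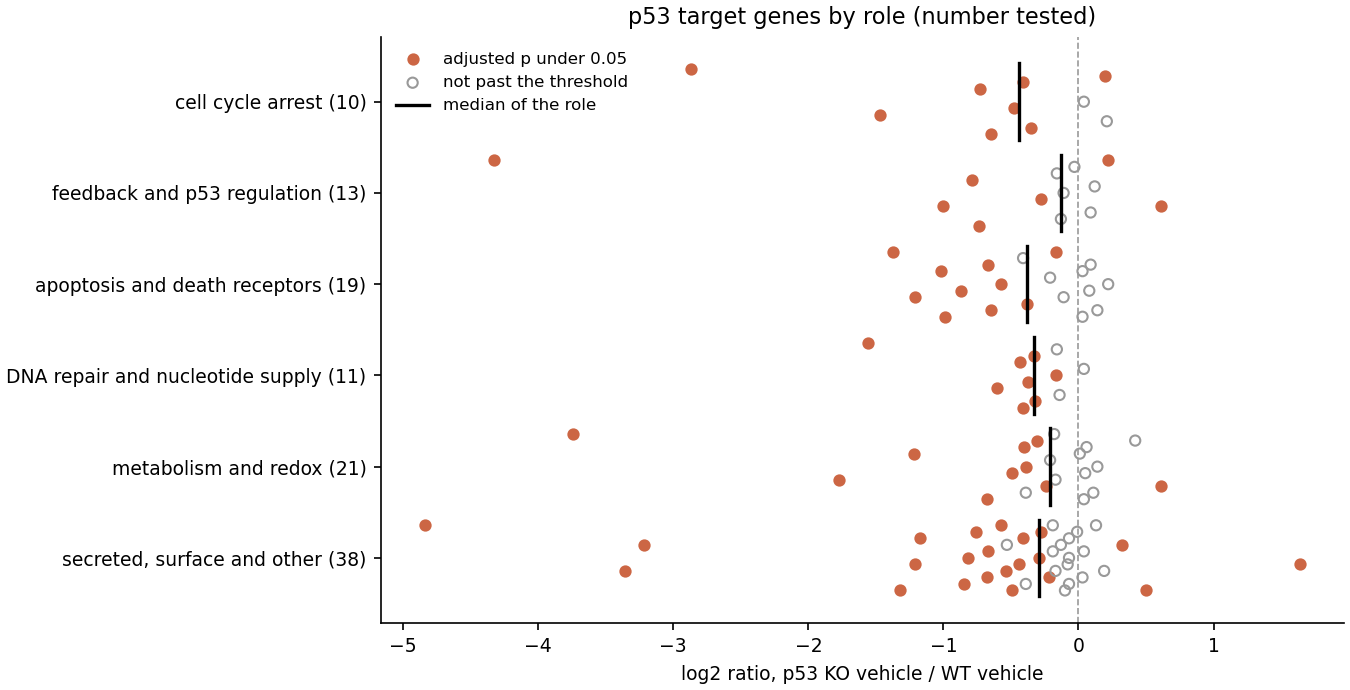
Log2 ratio of p53 KO to WT under vehicle for the 112 tested p53 targets, 1 point per gene, in 6 rows by role; filled points passed an adjusted p of 0.05 and black bars are the medians of the roles. All 6 medians lie below 0, from -0.44 for cell cycle arrest to -0.13 for feedback, and a few genes such as PHLDA3 and SPATA18 lie far to the left.

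Promoter windows (250 bases before to 50 after the annotated start, RefSeq, GRCh38.p14) were searched for the p53 consensus, 2 half-sites of 10 bases with no spacer, both strands being covered by its symmetry, with at most 2 mismatches and none at the C and G of each core. Such a site lay in 74 of 27305 windows (0.271%), among them 24 tested genes, of which 7 were lower and 1 higher. The shares of all tested genes were 12.1% lower and 9.63% higher. Of the 24, 2 had a perfect site, and both are noncoding RNAs that fell. LNCTAM34A, transcribed opposite the miR-34a host gene, read 4.66, 3.65, 2.9 and 3.81 CPM in WT and 0.43, 0.603, 0.256 and 0.409 CPM in p53 KO (log2 ratio -3.14 ± 0.21, adjusted p = 1.27e-10). PURPL read 3.9, 2.15, 2.02 and 2.29 CPM in WT and 0.956, 0.754, 0.844 and 0.601 CPM in p53 KO (log2 ratio -1.66 ± 0.23). The perfect sites are shown beside 3 fallen genes with 2 mismatches, the site in capitals, 5′ to 3′ on the strand of the gene.
LNCTAM34A: gctcgGAACAAGCCCAGGCAAGCCCaggca
PURPL: gcccaGGGCTTGTCTGGGCATGCCCacagt
AEN: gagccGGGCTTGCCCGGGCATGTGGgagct
DCP1B: gcagaGGGCAGGCCTGGGCTTGTCGttgcc
PPP2R1A: ggctcAAACTAGTCAAATCTTGTTCactcg
These stretches lie at chr1:9182139-9182168 (plus strand), chr5:27472160-27472189 (plus), chr15:88621301-88621330 (plus), chr12:2004645-2004674 (minus) and chr19:52189853-52189882 (plus), in the same order. The sites of LNCTAM34A and AEN end 40 and 14 bases before the start. DCP1B, a decapping cofactor, had a log2 ratio of -0.44 ± 0.07, and PPP2R1A, the scaffold of protein phosphatase 2A, one of -0.30 ± 0.07 (adjusted p = 6.68e-05 and 0.00224). A site did not always go with a fall: VDAC2 and PRPF6, with 2 mismatches each, both had log2 ratios of -0.02 ± 0.07 (edgeR, adjusted p = 0.854 and 0.866). GPX1 and GLS2, also with 2 mismatches each, had log2 ratios of -0.18 and -0.39 and did not pass the test (adjusted p = 0.337 and 0.56). GLS2 was scarce, at 0.302 CPM in WT and 0.229 CPM in p53 KO, and GPX1 was lower under GCN2iB (log2 ratio -0.41, adjusted p = 0.0207). Of the 93 listed targets with a window, 4 held a site, so most fallen targets had none within these 300 bases.

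Beyond p53 targets, the falls with the largest ratio among genes at 5 CPM or more included several that were on none of the p53 lists. SLC22A3, an organic cation transporter (chr6:160348268-160452581), read 12.6, 14.1, 13.3 and 13.3 CPM in WT and 0.382, 0.453, 0.332 and 0.573 CPM in p53 KO. It thus fell 30.7-fold (log2 ratio -4.94 ± 0.16, adjusted p = 7.62e-16). SMO, the signal transducer of the hedgehog pathway, read 8.61, 9.64, 10.5 and 9.15 CPM in WT and 0.478, 0.724, 0.741 and 0.437 CPM in p53 KO (log2 ratio -4.00 ± 0.18). MEST, a maternally imprinted gene on the same chromosome, fell from 8.94 ± 0.400 to 0.43 ± 0.225 CPM. GUCY1B1, a subunit of soluble guanylate cyclase, fell from 6.03 ± 0.224 to 0.393 ± 0.192 CPM, PLAAT3, a phospholipase, by 2.97 and RIPOR2, a RHOA inhibitor, by 2.75 on the log2 scale. A single gene was at 5 CPM or more in one genotype and under 0.5 CPM in every library of the other. It is an unnamed locus, ENSG00000251095 (chr4:89551356-89726752), at 9.21, 7.81, 7.79 and 8.15 CPM in WT and 0.143, 0.0603, 0.204 and 0.0819 CPM in p53 KO.

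The rises described here are among the largest of genes at 5 CPM or more whose groups did not overlap; scarcer genes had larger ratios. IGFBP3, which binds insulin-like growth factors, read 11.5, 12.4, 13.1 and 12.8 CPM in WT and 74.3, 77.8, 77.7 and 84.1 CPM in p53 KO, a 6.27-fold rise (log2 ratio 2.65 ± 0.21, adjusted p = 3.63e-07). The chemokine gene CCL5 read 1.77, 1.53, 1.93 and 2.9 CPM in WT and 11.6, 12.1, 12.7 and 12.2 CPM in p53 KO. EPHA3, an ephrin receptor, rose from 8.56 ± 0.350 to 43.1 ± 4.69 CPM and AGR2, a disulfide isomerase of secretory cells, from 26.5 ± 1.86 to 121 ± 4.84 CPM. BASP1, a membrane-bound signalling protein, rose by 2.30 on the log2 scale. UGT8, which makes galactosylceramide, rose by 2.13, and MAN1A1, a Golgi mannosidase, by 2.08.

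Interferon-stimulated genes are switched on through a complex that includes STAT2 and IRF9, at a promoter element made of GAAA copies. Of 44 tested, 24 were higher and 2 lower, with a median log2 ratio of 0.69. IFIT1, an RNA-binding antiviral protein, read 20, 17.9, 18.9 and 18.7 CPM in WT and 72, 71.7, 68.3 and 70.1 CPM in p53 KO (log2 ratio 1.90 ± 0.16, adjusted p = 1.65e-07). CXCL10, a chemokine, read 2.83, 2.15, 2.34 and 2.85 CPM in WT and 11.4, 10.5, 12 and 12.2 CPM in p53 KO. RSAD2, OASL and OAS1 rose by 1.99, 1.48 and 1.22 on the log2 scale, and IRF9 by 0.82. STAT2 and MX1 did not pass the test, with log2 ratios of 0.04 and 0.12 (adjusted p = 0.67 and 0.302). Under GCN2iB 22 of the 24 were again higher.

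The GAAA copies, 2 bases apart on either strand, were found in 996 of 27305 promoter windows (3.65%), and in 22 of the 34 listed interferon-stimulated genes that had a window (64.7%). Over all 337 tested genes with the element, 46 were higher and 48 lower, so rises and falls were about equally frequent among them. Among all tested genes 9.63% were higher and 12.1% lower. Of the 22 listed genes, 15 were higher and none lower, and of the 12 without the element 6 were higher and 1 lower. The element of 5 genes that rose is shown with the copies in capitals, read as TTTC where the element lies on the other strand.
IFIT1: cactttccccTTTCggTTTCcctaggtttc
IFIT3: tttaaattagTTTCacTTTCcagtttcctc
CXCL10: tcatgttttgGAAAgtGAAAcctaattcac
IFI6: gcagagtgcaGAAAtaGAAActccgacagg
IFI27: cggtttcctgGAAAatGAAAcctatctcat
They lie at chr10:89392510-89392539 (plus strand), chr10:89327865-89327894 (plus), chr4:76023699-76023728 (minus), chr1:27672266-27672295 (minus) and chr14:94110631-94110660 (plus). IFIT3 rose from 12.2 ± 0.723 to 43.9 ± 2.13 CPM, IFI6 from 16.4 ± 2.72 to 40.4 ± 5.17 CPM and IFI27 from 1.10 ± 0.221 to 3.15 ± 0.210 CPM.

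Antigen presentation by MHC class I, itself inducible by interferon, moved in both directions, with 3 of 22 tested genes higher and 6 lower. The light chain B2M rose from 230 ± 13.8 to 345 ± 14.4 CPM (log2 ratio 0.59 ± 0.07, adjusted p = 2.57e-06). The heavy chain HLA-B read 29.9, 35, 33.6 and 38.7 CPM in WT and 15.3, 21.3, 18.6 and 22.6 CPM in p53 KO (log2 ratio -0.82 ± 0.11), and HLA-C fell by 0.60 and the peptide transporter subunit TAP1 by 0.49. HLA genes are highly alike, so their reads can be split between copies. All 6 genes that fell lie in a stretch of chromosome 6 described further on, in which 129 of 300 genes were lower. Outside such stretches 3 of 11 tested genes of the list were higher and none lower. The stretch was picked by the same vehicle ratios, with these 6 genes in it, so the split is not a separate observation. The cause of the falls was not tested.

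Chaperones and folding enzymes of the endoplasmic reticulum were higher: 16 of 25 tested genes rose and none fell, with a median log2 ratio of 0.39. HSPA5, the chaperone BiP that holds the stress sensors inactive, read 2008, 1988, 2028 and 2048 CPM in WT and 3042, 3106, 3104 and 3012 CPM in p53 KO (log2 ratio 0.60 ± 0.05, adjusted p = 1.12e-08). PDIA4, a disulfide isomerase, rose by 0.68 ± 0.05, HERPUD1, of the degradation machinery, by 0.60 ± 0.06 and the cochaperone DNAJB11 by 0.49 ± 0.06. CALR, CANX and XBP1 did not pass the test, with log2 ratios of -0.04, -0.07 and 0.06. All 16 were also higher under GCN2iB.

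The ER stress response element, CCAAT and CCACG 9 bases apart on either strand, lay in 22 of 27305 promoter windows (0.0806%) and in 14 tested genes. Of these 14 genes, 6 were higher and none lower, beside 9.63% higher and 12.1% lower among all tested genes. Within the ER list, 4 of 7 genes with the element were higher, as were 12 of 17 without it. It is shown for 5 of the 6, with both blocks in capitals; on the other strand they read CGTGG and ATTGG.
HSPA5: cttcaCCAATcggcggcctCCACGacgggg
HSP90B1: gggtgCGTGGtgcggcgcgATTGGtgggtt
CRELD2: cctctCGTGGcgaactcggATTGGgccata
FICD: aacaaCCAATgggagtggcCCACGgcgcgt
ERO1B: gcccgCGTGGtcccgcctcATTGGccgccg
The positions are chr9:125241385-125241414 (minus strand), chr12:103930316-103930345 (plus), chr22:49918549-49918578 (plus), chr12:108515118-108515147 (plus) and chr1:236282177-236282206 (minus). HSP90B1, the chaperone GRP94, rose by 0.43 ± 0.07, CRELD2 by 0.49 ± 0.08, FICD, which modifies BiP, by 0.53 ± 0.07 and the oxidase ERO1B by 0.50 ± 0.10. CALR, CANX and XBP1 hold the element too and are among the 8 genes with it that did not pass the test.

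Glycolysis and hypoxia genes formed the list with the largest share of falls among those drawn in the plot of gene lists: 23 of 29 tested genes were lower and 1 higher, with a median log2 ratio of -0.35. PFKFB4, which makes the activator of phosphofructokinase, read 43.9, 42, 40.1 and 52.9 CPM in WT and 24.8, 22.3, 23.6 and 25.5 CPM in p53 KO (log2 ratio -0.90 ± 0.11, adjusted p = 3.16e-06). PFKP, the platelet isoform of phosphofructokinase, fell from 157 ± 9.81 to 109 ± 5.21 CPM and PGAM1, phosphoglycerate mutase, from 705 ± 38.7 to 529 ± 33.1 CPM. PDK1, a kinase that inhibits pyruvate dehydrogenase, fell from 63.7 ± 6.21 to 41.5 ± 6.40 CPM. Each of these steps changed by less than 2-fold. The glucose transporter SLC2A3 was the exception, rising from 0.616 ± 0.145 to 1.37 ± 0.163 CPM. Under GCN2iB 13 of the 23 were again lower and 1 gene was higher. In the pentose phosphate pathway 3 of 12 genes were lower and 2 higher.

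Messenger RNAs encoded by mitochondrial DNA were higher in 11 of 13 cases, with a median log2 ratio of 0.42, and 6 of the 11 were again higher under GCN2iB. MT-ND1, a subunit of complex I, rose from 1363 ± 182 to 1934 ± 58.1 CPM and MT-CO2, a subunit of cytochrome oxidase, from 1755 ± 154 to 2322 ± 176 CPM. The share of all counts from the mitochondrial genome was 3.065% to 4.173% in WT and 4.148% to 4.949% in p53 KO, so the groups just overlapped. The number of genes called was 7 without WT vehicle replicate 3, WT vehicle replicate 4 or p53 KO vehicle replicate 1. The share of mitochondrial counts includes these mRNAs, so it is not a separate observation.

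Cell cycle genes moved by small ratios. Among the 38 tested genes for replicating DNA in S phase, 11 were lower and 3 higher, with a median log2 ratio of -0.12. Only 3 of the 11 were again lower under GCN2iB, where 6 genes of the list were higher and 3 lower with a median of 0.01. The helicase subunits MCM3 and MCM6 fell by 0.44 ± 0.06 and 0.38 ± 0.06, the clamp PCNA, also a p53 target, by 0.33 ± 0.06 and the clamp loader subunit RFC5 by 0.29 ± 0.06. Of 36 genes of G2, mitosis and cytokinesis, 11 were higher and 1 lower, with a median of 0.08, and 10 of the 11 were again higher under GCN2iB. CDC25B, a phosphatase that activates CDK1, read 80.9, 90, 80.7 and 86.2 CPM in WT and 103, 127, 118 and 119 CPM in p53 KO (log2 ratio 0.46 ± 0.07), and the securin PTTG1 rose by 0.37 and the kinetochore gene NUF2 by 0.41. The proliferation marker MKI67 had a log2 ratio of 0.08 ± 0.20 and did not pass the test (adjusted p = 0.83). Both counts were unstable: S phase genes lower were 6 with library totals and 17 with a replicate block, and mitotic genes higher were 6 without p53 KO vehicle replicate 2, 7 without WT vehicle replicate 2 or 3, 6 with no count filter and 17 with GC and length trends removed.

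Among regulators of the G1 to S transition, 7 of 28 were higher and 3 lower. CDK6 rose from 2.73 ± 0.192 to 7.38 ± 1.46 CPM and CDKN2B, the inhibitor of CDK4 and CDK6, from 3.53 ± 0.514 to 8.61 ± 0.775 CPM (log2 ratios 1.43 and 1.29). The D-type cyclin CCND1 fell from 376 ± 21.5 to 299 ± 9.49 CPM. MYC, the transcription factor of growth, read 209, 214, 221 and 227 CPM in WT and 133, 143, 142 and 154 CPM in p53 KO, a 1.52-fold fall (adjusted p = 2.77e-08). The ribosome biogenesis and MYC target list had 4 of 30 genes lower and 2 higher, near the share of all genes.

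Genes of the prostate lineage divided. Of 41 tested genes of the androgen response, 15 were higher and 10 lower. KLK2, a secreted protease, read 346, 357, 340 and 383 CPM in WT and 545, 568, 591 and 555 CPM in p53 KO (log2 ratio 0.66 ± 0.07), whereas the protease TMPRSS2 read 374, 391, 384 and 415 CPM in WT and 269, 272, 263 and 292 CPM in p53 KO (log2 ratio -0.51 ± 0.06). MAF rose by 0.60, and CAMKK2 and ACP3, prostatic acid phosphatase, fell by 0.66 and 0.71. The androgen response list thus held calls in both directions.

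Luminal epithelial markers were lower in 10 of 18 cases and higher in 1, with a median of -0.19. EPCAM, an adhesion molecule, fell from 95.4 ± 6.84 to 64.3 ± 3.08 CPM and HOXB13 from 523 ± 43.2 to 406 ± 34.5 CPM. Of 11 tested basal markers 6 were higher (3 where genes had to average 50 counts) and 1 lower, and their log2 ratios ran from -0.96 to 2.97. Those that rose included LAMB3, a laminin chain, from 1.76 ± 0.267 to 4.44 ± 0.752 CPM. The basal keratin KRT5 and the basal regulator TP63 had 1 and 0 counts in the 4 WT libraries together and 0 and 2 in the 4 p53 KO libraries, so the defining basal genes were at or near 0. The 5 basal markers used to check the line summed to 2.62 to 2.99 CPM in WT and 3.78 to 4.64 CPM in p53 KO. Most of that sum was KRT14, at 2.65 CPM in WT and 3.53 CPM in p53 KO on average (edgeR, adjusted p = 0.0279). In bulk RNA, fewer cells of a type and less RNA per cell cannot be told apart. Among mesenchymal and stromal markers 4 of 14 were higher and 2 lower: VIM rose by 0.97 and SNAI2 by 1.24, and TWIST1 fell by 0.98. The 7 mesenchymal markers of the check summed to 519 to 640 CPM in WT and 634 to 812 CPM in p53 KO. Nearly all of that sum was FN1, at 574 and 729 CPM on average, which did not pass the test (adjusted p = 0.0516), while COL1A1 fell from 20.4 to 16.8 CPM. The 5 neuroendocrine markers summed to 26.8 to 30.8 and 22.2 to 26.9 CPM.

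Signals of growth factors and stress showed smaller groups. Of 26 genes of the TGF-beta and BMP pathway 6 were higher and 1 lower, the inhibitors of differentiation ID1, ID2 and ID3 rising by 0.97, 0.64 and 0.72. Of 22 NRF2 targets 7 were higher (4 without p53 KO vehicle replicate 4) and 1 lower, the latter being NQO1, a quinone reductase, at -0.30 ± 0.06. Of 29 ATF4 and stress genes 7 were higher (5 without WT vehicle replicate 1, 12 with GC and length trends removed) and 4 lower. The other 18 did not pass the test, ASNS, CHAC1 and ATF4 among them, and the log2 ratios of the list ran from -1.32 to 0.86. Of those that rose, ATF3 read 42.2, 46.9, 46.5 and 49.4 CPM in WT and 72.8, 76, 74.8 and 71.7 CPM in p53 KO (log2 ratio 0.67 ± 0.06), and DDIT3 rose by 0.86. Lists near or below the share of all genes were homologous recombination (1 of 28 higher, 1 lower), the eIF2 kinases and initiation factors (2 of 21 lower), de novo purine synthesis (1 of 13 higher, 2 lower) and serine and one-carbon metabolism (2 of 27 higher, 4 lower).

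**Figure D3:**
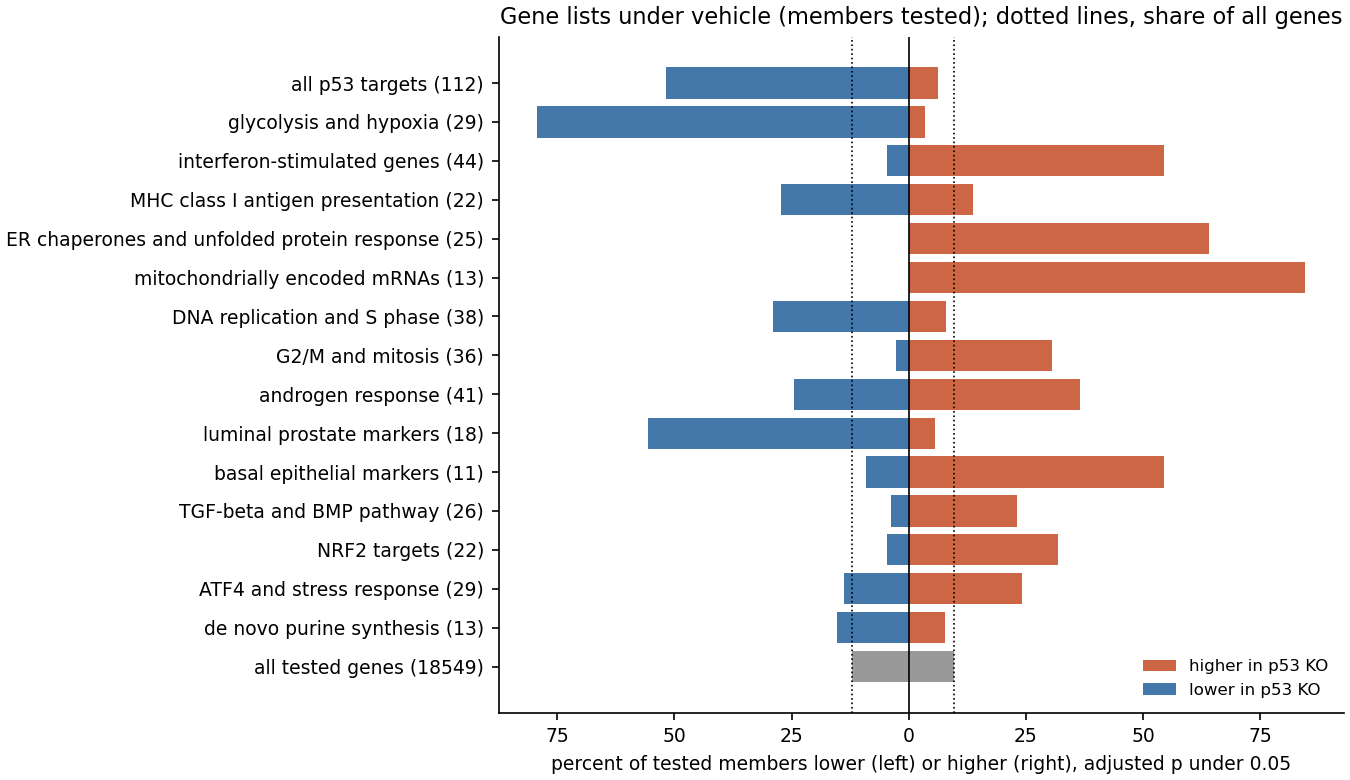
Percent of tested members that were lower (left) or higher (right) in p53 KO under vehicle for 15 gene lists and all tested genes, with the number tested in brackets; dotted lines mark the 12.1% lower and 9.63% higher among all tested genes. p53 targets, glycolysis and luminal markers extend to the left, and interferon-stimulated genes, ER chaperones and mitochondrial mRNAs to the right.

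Neighbouring genes moved together in some stretches of the genome. Tested genes were cut into windows of 20 along each chromosome (GENCODE 29 positions), and runs of at least 5 windows with a median log2 ratio beyond 0.1 in the same direction were kept. There were 7 such runs, holding 1194 genes. On chromosome 1, 3 runs between 162631373 and 241519761 had medians of 0.18, 0.20 and 0.15. On chromosomes 2 (38814 to 33399509), 4 (139028112 to 189963204), 5 (44808925 to 91439085) and 6 (28124560 to 49493107) the medians were -0.17, -0.22, -0.23 and -0.23.

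The run on chromosome 6 was the longest, with 129 of 300 genes (43%) lower and 9 higher. It holds CDKN1A, MAPK13, which fell by 1.01, and the HLA genes, while PGC, pepsinogen C, rose in it by 1.36. The run on chromosome 4 had 64 of 154 genes lower, with TLL1, a metalloprotease, going from 2.60 ± 0.232 to 0.0404 ± 0.0329 CPM, and the run on chromosome 5 had 74 of 180 lower, ARL15 among them at -1.25. PHLDA3, NIBAN1 and BTG2 lay inside the runs of chromosome 1, whose medians were positive, and fell there. ATF3, LAMB3, NUF2 and ERO1B, named above as rises, lay inside the same runs. The same runs had medians of one sign under GCN2iB, from 0.17 to 0.26 on chromosome 1 and from -0.19 to -0.11 on the other 4. The cause of these runs was not tested.

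The runs held 6.44% of all tested genes, 7.44% of the genes called higher and 15.1% of those called lower. They were picked by the same vehicle ratios that gave these calls, so the shares are not a separate observation. Without the runs, 50 of 101 tested p53 targets were lower, 21 of 27 glycolysis genes were lower, 22 of 42 interferon-stimulated genes were higher and 15 of 23 ER genes were higher.

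**Figure D4:**
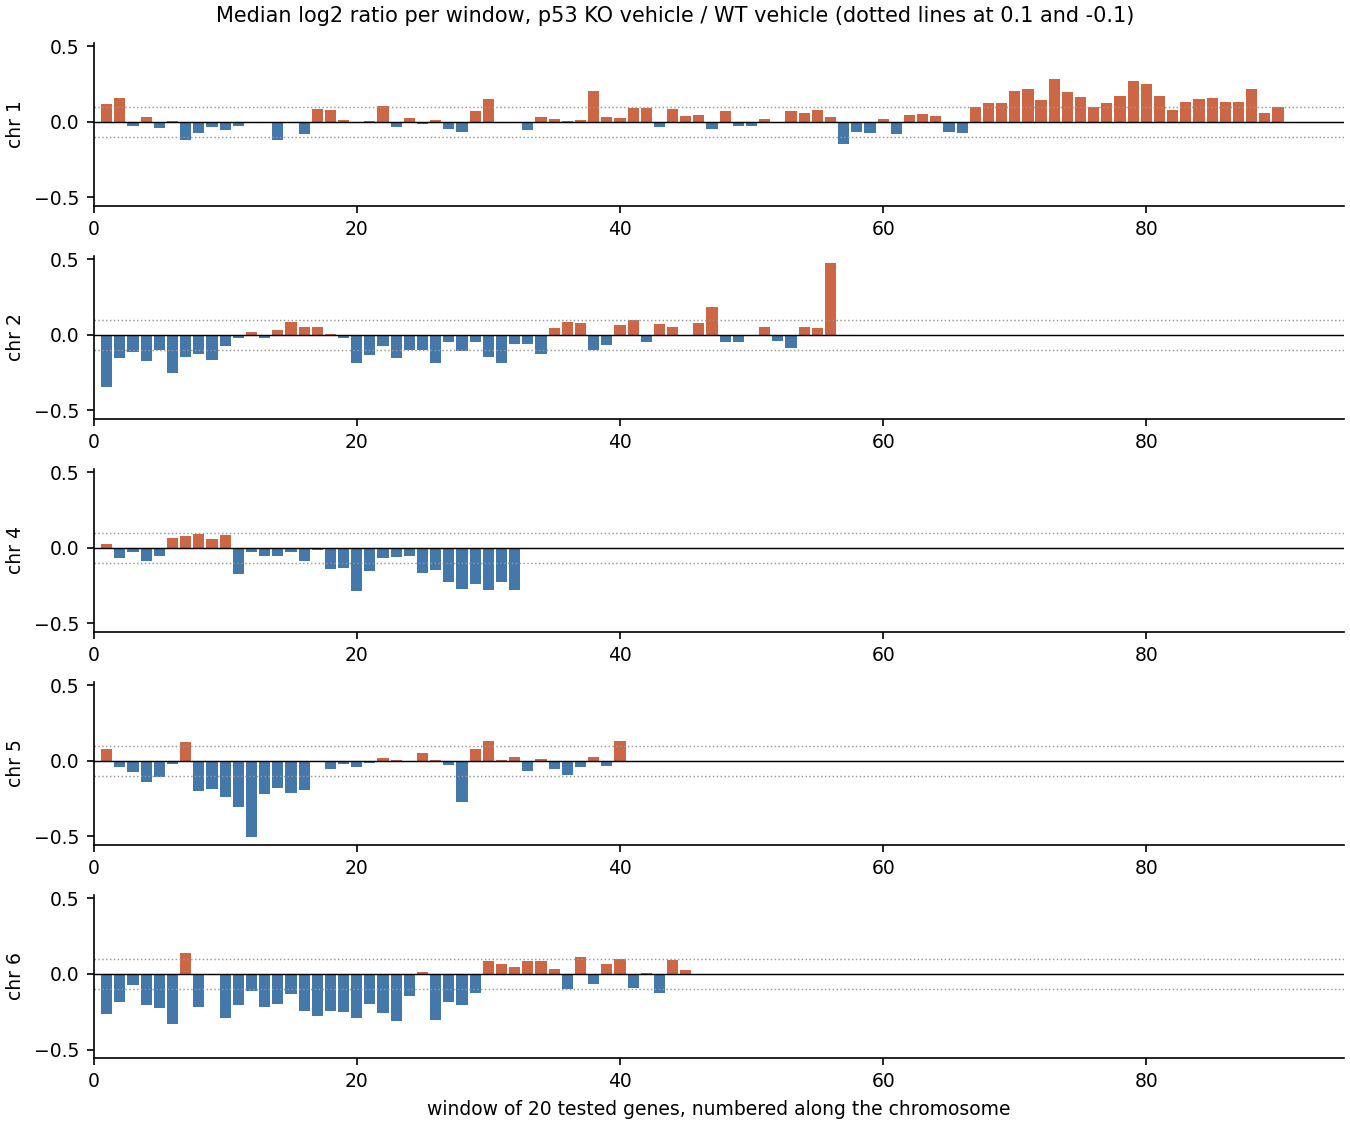
Median log2 ratio of p53 KO to WT under vehicle in consecutive windows of 20 tested genes on chromosomes 1, 2, 4, 5 and 6 (the last window of a chromosome holds fewer); dotted lines mark 0.1 and -0.1. The end of chromosome 1 lies above 0, and the start of 2, the end of 4 and wide parts of 5 and 6 lie below.

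The genotype difference was read again in the 8 GCN2iB libraries, which share no library with the vehicle comparison, although both came from the same 2 lines. Under GCN2iB 2356 genes (12.7%) were higher and 2085 (11.2%) lower in p53 KO. Of the 4025 genes called under vehicle, 2536 (63%) were called with the same sign, 7 with the opposite sign, and 3813 (94.7%) had the same sign whether called or not. With each treatment fitted on its own 8 libraries, 1678 genes were higher and 1987 lower under vehicle. Of these, 2273 were called under GCN2iB with the same sign. Among genes at 2-fold or more under vehicle, 564 of 752 (75%) were called again.

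The difference between both genotype effects was significant for 1 of 18549 genes (0.00539%), while 1754 had an unadjusted p under 0.05. DESeq2 called 38 genes, limma voom 1 and edgeR with a replicate block 61, so the count depended on the method. The 1 gene was SESN2, with a difference of -0.74 ± 0.10 on the log2 scale (adjusted p = 0.00142): its genotype ratio was -0.17 under vehicle and -0.91 under GCN2iB. The difference ranged from -0.81 to -0.71 over all settings and left-out libraries. CDKN1A had ratios of -2.87 and -3.43 under the respective treatments, and IGFBP3 of 2.65 and 2.20, differences that did not pass the test.

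**Figure D5:**
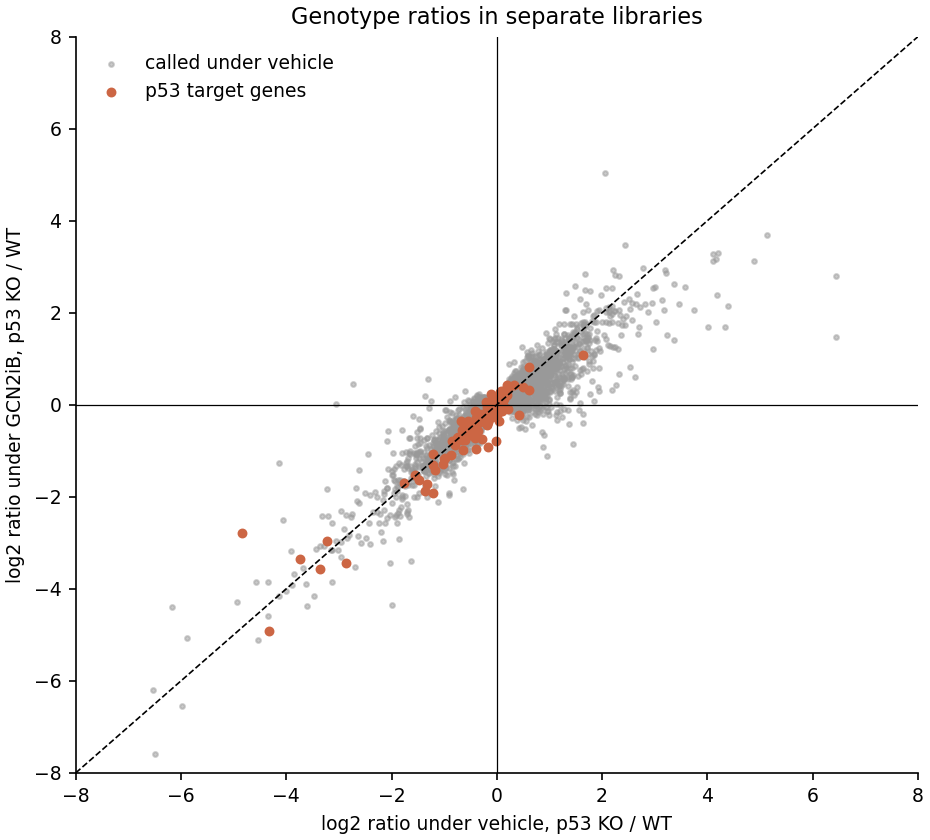
Log2 ratio of p53 KO to WT under vehicle (horizontal) and under GCN2iB (vertical); grey points are 4021 genes called under vehicle, coloured points the 112 tested p53 targets, and the dashed line marks equal ratios. Most points lie in the 2 quadrants of equal sign, as 94.7% of the called genes had the same sign.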

How the data were processed

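The authors deposited 1 table of raw counts, 62754 genes by 16 libraries, with no normalization. Per the submitters' processing notes, which give no versions, the tools were Trim Galore and HISAT2, then featureCounts and DESeq2, on GRCh38; which annotation release and strand setting were used is not given in the sources used here, so antisense and overlapping genes are uncertain. Identifiers were matched to symbols (42343) and GENCODE 29 positions (58261).

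Genotypes were compared with edgeR 4.0.16 under R 4.3.3. DESeq2 1.42.0 and limma 3.58.1 served as alternatives, Python 3.11.15 with pandas 2.3.3 for joins, and matplotlib 3.10.9 for figures. After filterByExpr, 18549 genes remained, with at least 99.906% of each library's counts. Totals were TMM-scaled, and a robust quasi-likelihood model with 1 term per group was fitted to all 16 libraries. The p-values are two-sided and adjusted by Benjamini-Hochberg over all tested genes, with a threshold of 0.05. CPM are those of edgeR; a mean ± SD is over 4 libraries, and an SE is that of a log2 ratio. The fit was tested on simulated data.

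The comparison, the 45 gene lists (6 of p53 targets) and the rules were chosen with earlier results of these data known; list counts carry no test. Named were CDKN1A, MDM2, EIF2AK4 and ATF4; the 12 largest rises and falls among called genes at 5 CPM or more without overlap of the groups; up to 4 members with the smallest adjusted p of each list with at least 25% called (8 for p53 lists); genes under 0.5 CPM in one genotype; and up to 3 genes per run. Other named genes were chosen after their values were seen or for a promoter match. The level of the targeted gene and of some other genes is not reported here. Windows were counted by whole chromosome, not by arm.

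Alternatives were DESeq2 size factors, library totals, 2 other count filters, DESeq2, limma voom, only the vehicle libraries, a replicate block, removal of GC and length trends (splines of 5 degrees of freedom, 17678 genes), each library left out, and other window sizes; a fit of each treatment alone was added after seeing the data.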

Additional observations from a re-analysis of the deposited data

Results flagged for a closer look

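In 12 of 260 groups of 4 vehicle libraries, 1 library lay apart from the other 3 by Dixon's criterion, or 4.62%; chance alone marks about 1 group in 20. In p53 KO, replicate 4 was high for CDKN1A (43.1 CPM, the others 35.4 to 36.1) and HMOX1 (20.6 CPM, the others 15.3 to 15.5). Replicate 1 of p53 KO was high for PDK1 (51 CPM, the others 37.9 to 38.6) and MAF (108 CPM, the others 94 to 96.4). It was low for OASL (90.7 CPM, the others 103 to 105), OAS1 (8.79 CPM, the others 9.36 to 9.42) and IFI27 (2.84 CPM, the others 3.23 to 3.3). In WT, replicate 4 was low for CCND1 (344 CPM, the others 384 to 391) and high for CDKN2A (21.3 CPM, the others 17.7 to 17.9). Replicate 1 of WT was high for PURPL (3.9 CPM, the others 2.02 to 2.29) and low for GPX1 (47.8 CPM, the others 60.3 to 62.2) and SESN2 (45.8 CPM, the others 51.4 to 52.2).

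The genotype ratio of SESN2 differed between treatments, by -0.74 ± 0.10 on the log2 scale (edgeR, adjusted p = 0.00142), and it was the 1 gene for which that difference passed the test.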

How the results depend on the processing

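Higher and lower counts under vehicle stayed within 1.5 times of 1787 and 2238 in all alternatives but 1: with GC and length trends removed, 2768 genes were higher. With a mean of at least 50 counts, 115 genes were higher and 143 lower at 2-fold or more, against 408 and 344; this filter drops scarce genes. Leaving out single vehicle libraries gave 1308 to 1809 genes higher and 1832 to 2383 lower. Genes whose genotype effect differed between treatments numbered 1, against 2 with DESeq2 size factors, 4 with library totals, 47 with no filter beyond 1 count, 6 with a mean of at least 50 counts, 38 with DESeq2, 61 with a replicate block, 14 with GC and length trends removed, and 1 to 34 without single libraries (34 without WT GCN2iB replicate 1, 10 without p53 KO GCN2iB replicate 4, 5 without WT GCN2iB replicate 4, 2 without WT vehicle replicate 3, WT GCN2iB replicate 3 or p53 KO vehicle replicate 4). Runs held 654 genes with windows of 10 and 1754 with windows of 40. The cause was not tested. Same-numbered vehicle libraries had residual correlations of 0.646, 0.197, 0.00998 and 0.59, so 3 of 4 pairs exceeded 0.1. Pairing was taken as shown only if every pair did, and the labels state none. That 6 of 8 libraries correlated best with their own number is a hint of pairing from the data. A replicate block gave 2297 genes higher and 2906 lower. Of 226 named genes that were called, none reversed in any alternative; at most 11 lost their call, without p53 KO vehicle replicate 2, while PMAIP1 and SESN2 gained one in 8 and 3 of 17 alternatives. Counting error limits genes under 1 CPM.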

Other observations

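The genes of this section were chosen after their values were seen. MT2A, a zinc-binding metallothionein, read 79.5, 81.8, 90.3 and 93.5 CPM in WT and 214, 240, 241 and 226 CPM in p53 KO (edgeR, log2 ratio 1.41 ± 0.24, adjusted p = 0.000754), and its relatives MT1G, MT1X and MT1F rose by 0.90, 1.01 and 1.05 (adjusted p = 0.000576, 0.000173 and 0.00131). The groups of MT2A did not overlap. Metallothionein genes are alike in sequence, so reads may be split between them. The apolipoprotein L genes APOL1, APOL3 and APOL6, which lie close together on chromosome 22, rose by 1.75, 1.12 and 0.99.

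The next genes ranged from scarce ones, such as LYZ, to abundant ones, such as MYO6. The cancer-testis gene MAGEC1 read 0.0506, 0.236, 0.0312 and 0.166 CPM in WT and 2.37, 2.47, 2.43 and 2.62 CPM in p53 KO, while MAGEA1 fell from 17.0 ± 0.647 to 6.95 ± 0.651 CPM. LYZ, lysozyme, read 0 to 0.0506 CPM in WT and 0.358 to 1.36 CPM in p53 KO. PEG3, an imprinted zinc finger gene, fell from 72.5 ± 12.6 to 24.3 ± 3.38 CPM, and PEG10, another imprinted gene, rose from 3.58 ± 0.504 to 6.61 ± 0.395 CPM. MYO6, an unconventional myosin on chromosome 6, fell from 835 ± 64.1 to 283 ± 24.3 CPM.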
